A study of Mus musculus with 6 samples.

Results

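The carriers described here move glucose, amino acids, lactate and related small nutrients across membranes. They are the mouse genes whose names begin with Slc1a, Slc2a, Slc3a, Slc6a, Slc7a, Slc16a, Slc36a, Slc38a or Slc43a followed by a digit, antisense and pseudogene names left out, and 87 of the 24333 genes used belonged to them. RNA sequencing measured them in splenic NK cells of female C57BL/6 mice. Of the 6 libraries, 3 came after treatment with IL-15 cytokine complexes (IL-15C) and 3 after IL-2 cytokine complexes (IL-2C). The cells were NK1.1+ and NKp46+ and lacked CD3 and CD1d tetramer staining; the labels name no genotype, age, dose, time or carrier protein of the complexes. Every difference is one of IL-15C against IL-2C, 2 treatments that both act on NK cells, with no untreated group.

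Resting lymphocytes import little, and activated ones raise the number of nutrient carriers at the surface. Glucose enters through facilitative GLUT proteins of the Slc2a family, and the lactate made from it leaves with a proton through monocarboxylate carriers of the Slc16a family. Glutamine enters through sodium-coupled carriers such as Slc1a5 and Slc38a2. Large neutral amino acids enter through exchangers made of a heavy chain, Slc3a2 (CD98), and a light chain such as Slc7a5 (LAT1). In NK cells amino acid import through these proteins is known to sustain the kinase complex mTORC1 and the transcription factor MYC.

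Of the 87 carrier genes, 47 had an FPKM (fragments scaled to transcript length and to the mapped total) above 0 in all 6 libraries, 20 in some libraries, and 20 were listed at 0 in every library. A mean of at least 1 FPKM over the 6 libraries, the minimum for testing, was reached by 26 genes, and only these entered the test. They comprised 6 of 12 hexose carriers, 4 of 14 genes of the monocarboxylate family, 4 of 14 genes of the heteromeric and system L exchangers and 1 of 5 cationic amino acid carriers. They also comprised 7 of 13 sodium-coupled neutral amino acid carriers, 2 of 4 proton-coupled amino acid carriers, 1 of 19 Slc6 genes and the purine nucleobase carrier Slc43a3. None of the 5 glutamate carriers of the Slc1a family reached it; 2 were listed at 0 in every library and the other 3 averaged at most 0.00423 FPKM. Genes were compared by limma on log2(FPKM + 1), IL-15C minus IL-2C, with p-values adjusted over all 9831 tested genes.

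The hexamer CACGTG, the E-box that MYC and related factors bind, and TTCNNNGAA, the element bound by STAT5, the factor activated by both cytokines, were searched in the 250 bases before the start of each gene (RefSeq, GRCm38.p6, starts within 100 bases of the start in the files). The windows were available for 15 of the 26 tested carriers. Slc16a6 and Slc43a3, the carriers that passed the test described below, had no window and were not searched. Both strands were read, and both motifs are their own reverse complements. An E-box was present in 3 of the 15 (20%), against 8.82% of the windows of all tested genes, 6.87% of all 16163 gene windows and 15.4% (4 of 26) of those of carriers at 0 in at least 1 library. A STAT5 element was in 1 (6.67%), against 6.23% for all tested genes and 7.02% for all genes. TGATGNAAN, searched on both strands for the stress factor ATF4, was in 0 of 15, against 1.71% for all tested genes and 2.91% for all genes. The 4 windows with a match are printed 5′ to 3′ on the gene's strand, ending at the base before the start, with the motif in capitals. They lie at chr3:104638414-104638663 on the plus strand (Slc16a1), chr11:55204090-55204339 on the plus strand (Slc36a1), chr8:95853492-95853741 on the minus strand (Slc38a7) and chr13:112660516-112660765 on the plus strand (Slc38a9).
Slc16a1: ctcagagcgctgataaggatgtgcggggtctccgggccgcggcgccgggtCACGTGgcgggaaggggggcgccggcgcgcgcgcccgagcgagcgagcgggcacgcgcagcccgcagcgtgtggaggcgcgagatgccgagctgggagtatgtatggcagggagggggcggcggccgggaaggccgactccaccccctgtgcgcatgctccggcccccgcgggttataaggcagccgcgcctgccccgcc
Slc36a1: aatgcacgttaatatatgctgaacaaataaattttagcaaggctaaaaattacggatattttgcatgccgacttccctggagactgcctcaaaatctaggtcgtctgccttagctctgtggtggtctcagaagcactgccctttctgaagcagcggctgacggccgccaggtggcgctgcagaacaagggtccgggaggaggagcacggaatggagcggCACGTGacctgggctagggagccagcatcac
Slc38a7: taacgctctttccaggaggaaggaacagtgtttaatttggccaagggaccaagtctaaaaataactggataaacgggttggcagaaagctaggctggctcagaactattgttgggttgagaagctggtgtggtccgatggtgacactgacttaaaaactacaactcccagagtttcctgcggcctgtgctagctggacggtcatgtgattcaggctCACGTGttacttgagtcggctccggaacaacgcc
Slc38a9: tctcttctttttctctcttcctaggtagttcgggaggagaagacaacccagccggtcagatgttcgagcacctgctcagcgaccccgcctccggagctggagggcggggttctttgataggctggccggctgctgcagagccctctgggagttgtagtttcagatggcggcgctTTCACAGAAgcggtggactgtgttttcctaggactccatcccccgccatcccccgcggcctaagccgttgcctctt
Counted from the start, the E-box began at -200 in Slc16a1, -31 in Slc36a1 and -34 in Slc38a7, and the STAT5 element of Slc38a9 began at -76. The windows of the 15 had a median GC content of 62.8%, against 60.0% for all tested genes. A match is a description of these letters and not of binding. The log2 changes of the 3 genes with an E-box were 0.28 for Slc16a1, -0.03 for Slc36a1 and 0.04 for Slc38a7, none past the test. No carrier with a window passed it, so the motifs cannot be set against the calls.

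The most abundant carriers were amino acid importers. Slc1a5 (ASCT2), which exchanges glutamine and other neutral amino acids, had 86.0, 76.6 and 80.7 FPKM in IL-15C against 89.3, 84.2 and 82.4 FPKM in IL-2C and ranked 652 of the 9831 tested genes by mean FPKM. It made up 20.5% ± 0.397 (SD, n = 3) of the summed FPKM of all 87 carriers in IL-15C and 22.1% ± 0.646 in IL-2C. Slc38a2 (SNAT2), a sodium-coupled importer of glutamine and alanine, came next with 16.3% ± 0.116 in IL-15C and 15.5% ± 1.06 in IL-2C, and the glucose carrier Slc2a3 (GLUT3) followed with 9.61% ± 0.330 in IL-15C and 9.03% ± 0.248 in IL-2C. FPKM is scaled to transcript length, so these levels can be set side by side. The summed FPKM of all carriers was 420, 382 and 387 in IL-15C libraries 1, 2 and 3, against 391, 390 and 376 in IL-2C, so the groups overlapped.

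**Figure D1:**
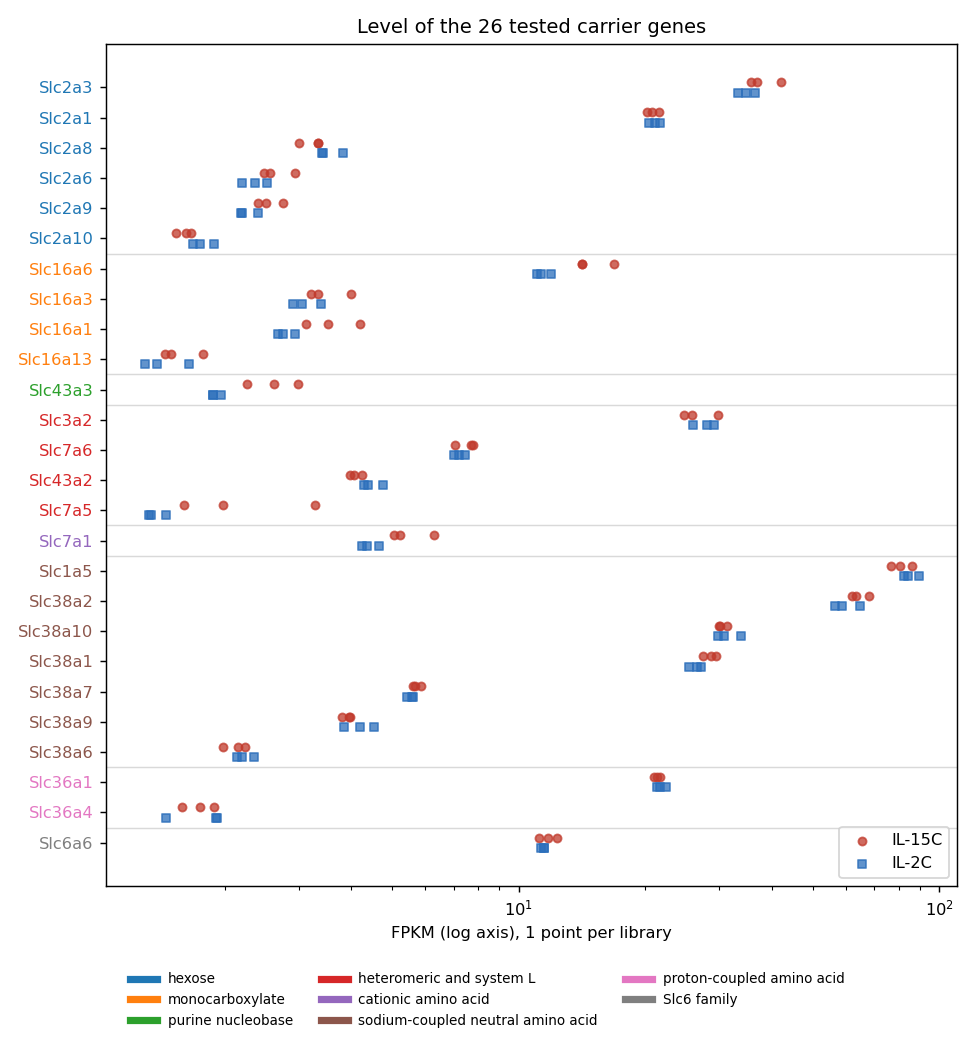
FPKM of the 26 tested carrier genes on a log axis, 1 point per library, IL-15C as circles above IL-2C as squares, gene names coloured by substrate class. Slc1a5 and Slc38a2 lie highest, and 15 of the 26 genes overlap between the groups. In 8 genes, among them Slc16a6 and Slc43a3, the 3 IL-15C points lie to the right of the 3 IL-2C points, and in 3 genes to the left.

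Between the treatments 2 carriers rose in IL-15C, 0 fell and 24 did not pass at an adjusted p under 0.05 (limma). Of all tested genes, 1.72% were called higher and 4.72% lower, 6.44% in either direction. The split of all calls depended on the scaling: 169 genes were higher and 464 lower as deposited, 325 and 207 after common median scaling, and 307 and 269 after quantile normalization. The count of carriers called higher was 0 with IL-2C replicate 1 or 2 left out and 1 with IL-15C replicate 1, IL-15C replicate 3 or IL-2C replicate 3 left out. At an unadjusted p under 0.05, 6 of the 26 carriers were higher and 0 lower in IL-15C, where 6.48% of all tested genes were higher and 20.4% lower. The 3 IL-15C values all lay above the 3 IL-2C values for 8 carriers and all below for 3 (Slc43a2, Slc2a8 and Slc2a10), against 8.15% and 25.1% of all tested genes. The median log2 change was 0.04 over the 26 carriers and -0.04 over all tested genes, and 15 of the 26 were above 0, against 35.3% of all tested genes. These values hold for the deposited scale. After common median scaling the median of all tested genes was 0.0005 and 3 carriers turned sign. The labels do not say that the libraries came from separate mice, so the p-values measure the spread between these libraries, which may be technical. In such bulk samples fewer cells of a type and less RNA per cell cannot be told apart.

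The libraries had 23543141 to 24580391 fragments implied by the deposited intervals in IL-15C and 23665058 to 27229145 in IL-2C. IL-15C replicate 1 stood apart for the carriers: it held the highest value of 14 of the 26 (53.8%) and of 25.0% of all tested genes. The NK markers Ncr1 (NKp46) and Klrb1c (NK1.1) averaged 779 and 527 FPKM in IL-15C, against 811 and 529 FPKM in IL-2C, and all 11 NK marker genes were above 0 in all libraries, with 1 of them, Gzmb (granzyme B), called higher in IL-15C. Klrd1, Klrk1 and Eomes were lower in every IL-15C library than in any IL-2C library without passing the test, at log2 changes of -0.22, -0.18 and -0.17 (limma adjusted p = 0.0512, 0.0591 and 0.0755). Of all tested genes, 25.1% lay below in the same way, so 3 of the 11 NK markers is near the usual share. Summed FPKM of 7 myeloid genes was 299 to 350 in IL-15C and 248 to 280 in IL-2C. Most of that was Itgax, which NK cells express too and which was called higher in IL-15C; S100a8 had 42.6 FPKM in IL-15C replicate 1 and 12.97 to 21.99 in the other 5 libraries. S100a9 and Lyz2 were also highest in IL-15C replicate 1, at 45.95 and 25.5 FPKM, against 17.2 to 28.04 and 12.2 to 19.99 FPKM in the other 5, while Csf1r, Adgre1 and Cd14 stayed below 1 FPKM. Summed erythroid genes were 1.18 to 21.8 in IL-15C, the highest in replicate 1, and 1.93 to 3.80 in IL-2C. The 5 B cell genes summed to 1.03 to 8.59 in IL-15C and 2.87 to 13.6 in IL-2C, and the 6 T cell genes to 50.6 to 71.7 in IL-15C, against 52.5 to 57.4 in IL-2C, with Cd4, Cd8b1 and Cd5 below 1 FPKM. The T cell sum came from the CD3 chain genes, although the cells were sorted as CD3-: Cd3g had 44.6, 36.5 and 31.6 FPKM in IL-15C, against 30.7, 32.9 and 31.7 FPKM in IL-2C, Cd3d averaged 18.2 FPKM in IL-15C, against 18.05 FPKM in IL-2C, and Cd3e 4.16 FPKM in IL-15C, against 4.52 FPKM in IL-2C. None of these 3 passed in limma, and Cd3g and Cd3d were highest in IL-15C replicate 1. The 3 platelet genes summed to at most 2.55 in IL-15C, against 3.11 in IL-2C, and the 2 plasma cell genes to at most 6.77 in IL-15C and 4.67 in IL-2C. The part of these cells in the carrier values was not tested.

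In the monocarboxylate family all 4 tested genes had a log2 change above 0, at a median of 0.20, and 1 passed the test. Of all tested genes, 35.3% were above 0 and 1.72% were called higher. All 4 were highest in IL-15C replicate 1. With that library left out the log2 changes were 0.28 for Slc16a6, 0.19 for Slc16a1, 0.05 for Slc16a3 and 0.02 for Slc16a13. Slc16a6 (MCT7), which exports ketone bodies from the liver in zebrafish, rose in IL-15C. It had 16.9, 14.1 and 14.1 FPKM in IL-15C against 11.3, 11.1 and 12.0 FPKM in IL-2C. The groups did not overlap, and the highest of the 3 IL-15C values was that of replicate 1. The means were 15.03 ± 1.58 FPKM in IL-15C, against 11.4 ± 0.461 FPKM in IL-2C (SD, n = 3 each), a ratio of 1.31 and a log2 change of 0.36 ± 0.07 (SE), with a 95% interval of 0.21 to 0.51 and a limma adjusted p of 0.0226. Without IL-15C replicate 1 the gene stayed called, with a ratio of 1.23 and an adjusted p of 0.0134. The call ended without IL-2C replicate 1 (adjusted p = 0.0918) and without IL-2C replicate 2 (adjusted p = 0.0972), at log2 changes of 0.35 and 0.34. The gene lies on chromosome 11 at 109450856 to 109473596 (mm10). Its locus overlaps that of Arsg on the opposite strand by 223 bases and that of LOC100503496 by 2504 bases; these averaged 0.471 and 0.0103 FPKM, and whether the libraries kept the strand is not given in the labels.

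Slc16a1 (MCT1), which carries lactate and pyruvate in either direction, had 4.19, 3.51 and 3.12 FPKM in IL-15C against 2.93, 2.76 and 2.68 FPKM in IL-2C. All IL-15C values were higher, replicate 1 most of all, but the log2 change of 0.28 ± 0.08 did not pass (adjusted p = 0.0781, 95% interval 0.09 to 0.46). Slc16a3 (MCT4), the low-affinity lactate exporter of glycolytic cells, had 3.997, 3.21 and 3.33 FPKM in IL-15C against 3.39, 3.06 and 2.91 FPKM in IL-2C; the groups overlapped in FPKM and the log2 change was 0.13 ± 0.08. Slc16a13 had 1.44 to 1.78 FPKM in IL-15C, against 1.29 to 1.65 FPKM in IL-2C. The summed FPKM of the family was 28.5, 23.9 and 23.5 in IL-15C against 20.5, 19.6 and 20.1 in IL-2C. Without Slc16a6 the sums were 11.7, 9.79 and 9.38 in IL-15C against 9.21, 8.57 and 8.12 in IL-2C, and the groups still did not overlap.

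Slc16a10 (TAT1), which carries aromatic amino acids, lay below the minimum for testing. It had 0.917, 0.618 and 0.717 FPKM in IL-15C, from 115, 88 and 94 implied fragments, against 0.495, 0.417 and 0.434 FPKM in IL-2C, where 64, 72 and 68 fragments were implied. Every IL-15C value was above every IL-2C value, the ratio of means was 1.67, and it was 1.49 without IL-15C replicate 1. An exact permutation test, two-sided, gave p = 0.1, the lowest possible with 3 libraries a group, and limma without the minimum gave an adjusted p of 0.108. Of the 21 carriers above 0 in every library but below the minimum, 2 had all IL-15C values above all IL-2C values (Slc16a10 and Slc1a4), 3 had them below (Slc6a4, Slc6a13 and Slc16a12) and 16 overlapped. The matching share of all genes below the minimum was not computed, so these counts cannot be read as more or fewer than usual. Slc1a4 rested on 14, 10 and 7 implied fragments in IL-15C, against 6, 2 and 5 in IL-2C. Slc6a4 had 0.0882, 0.0415 and 0.0738 FPKM in IL-15C, against 0.0985, 0.150 and 0.103 FPKM in IL-2C; the other 2 lower ones rested on at most 5 implied fragments a library. The other 9 members of the monocarboxylate family averaged at most 0.412 FPKM, the highest being Slc16a4.

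Slc43a3, which carries purine nucleobases although its relatives Slc43a1 and Slc43a2 carry amino acids, rose in IL-15C. It had 3.00, 2.26 and 2.62 FPKM in IL-15C against 1.87, 1.96 and 1.88 FPKM in IL-2C. The implied fragments numbered 300, 235 and 285 in IL-15C, against 182, 228 and 225 in IL-2C. The groups did not overlap, and the IL-15C values were spread more widely. The means were 2.62 ± 0.369 FPKM in IL-15C, against 1.91 ± 0.0481 FPKM in IL-2C (SD, n = 3 each), a ratio of 1.38 and a log2 change of 0.31 ± 0.08, with a limma adjusted p of 0.0496. This call lay at the threshold: it held in 1 of the 6 omissions of a library, that of IL-15C replicate 2 (adjusted p = 0.0436). It ended without IL-15C replicate 1 (0.0730) or 3 (0.109) and without IL-2C replicate 1 (0.147), 2 (0.132) or 3 (0.0986). Slc43a3 lies on chromosome 2 at 84936646 to 84958509, 73.1 kb from Slc43a1, which averaged 0.0597 FPKM.

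**Figure D2:**
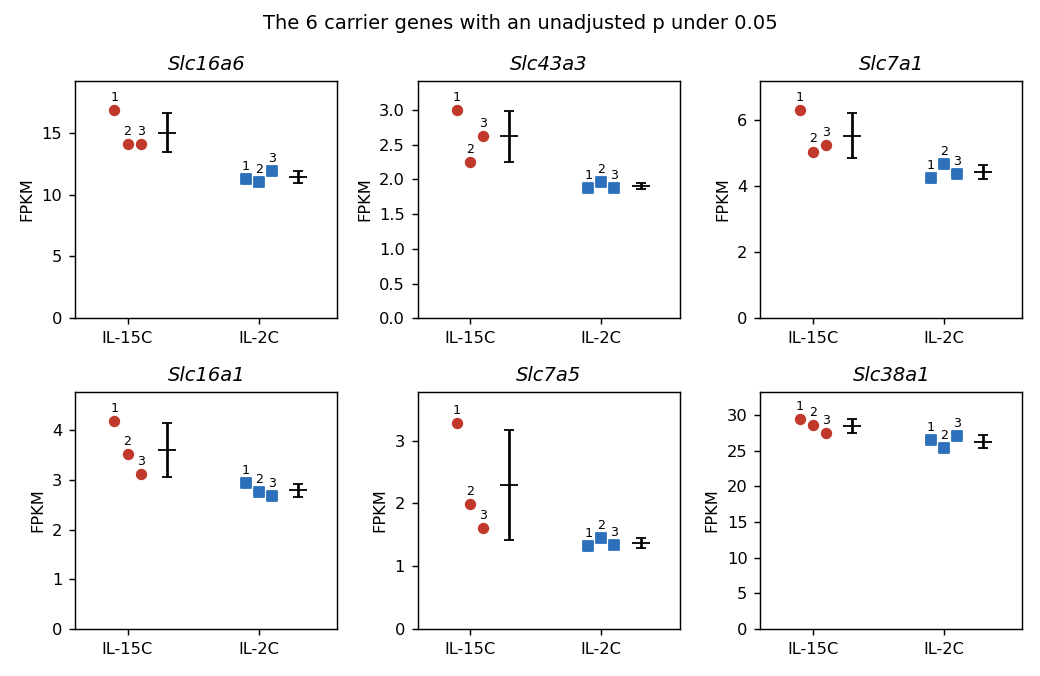
FPKM of the 6 carriers with an unadjusted p under 0.05, each point 1 library numbered by replicate, IL-15C left of IL-2C, with the group mean and SD (n = 3) beside the points. In all 6 panels the IL-15C points lie above the IL-2C points, and replicate 1 is the highest IL-15C point.

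The 4 tested genes of the heteromeric and system L exchangers gave 0 calls in limma, where 6.44% of all tested genes were called. At an unadjusted p under 0.05, 1 gene, Slc7a5, was higher, where 6.48% of all tested genes were. With so few genes these counts do not set the class apart. The light chain Slc7a5 (LAT1) had 3.28, 1.99 and 1.61 FPKM in IL-15C against 1.32, 1.45 and 1.33 FPKM in IL-2C. The implied fragments numbered 473, 300 and 241 in IL-15C, against 186, 240 and 227 in IL-2C. Replicate 1 of IL-15C was far above the rest, and the other 2 IL-15C libraries were also above all of IL-2C. The ratio of means was 1.67, and 1.31 with that library left out. The log2 change of 0.44 ± 0.15 was the largest of the 26 carriers and did not pass (limma adjusted p = 0.107; 0.108 without IL-15C replicate 1, at a log2 change of 0.24). The authors' deposited table gives for Slc7a5 a group value of 3.09 FPKM (interval 2.42 to 3.75) in IL-15C and 1.801 (1.36 to 2.25) in IL-2C. Its scaling is separate from that of the libraries' own files. Slc7a5 was the 1 carrier of 26 whose intervals there did not overlap. How many of all genes had intervals apart there was not computed, so this count has no background. For Slc16a6 the authors' deposited table gives 20.4 (17.2 to 23.6) in IL-15C, against 15.1 (12.7 to 17.5) in IL-2C.

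The heavy chain Slc3a2 (CD98), which brings the light chains to the surface, had 29.8, 25.8 and 24.7 FPKM in IL-15C against 28.01, 29.0 and 25.99 FPKM in IL-2C. The groups overlapped, the log2 change was -0.05 ± 0.07, and its 95% interval ran from -0.21 to 0.11. Slc7a6, a light chain that exchanges cationic for neutral amino acids, had 7.07 to 7.80 FPKM in IL-15C, against 7.01 to 7.45 FPKM in IL-2C. Slc43a2 (LAT4), which lets large neutral amino acids pass without a heavy chain, had 4.06, 4.24 and 3.96 FPKM in IL-15C against 4.75, 4.39 and 4.29 FPKM in IL-2C, with IL-15C lower throughout and a log2 change of -0.11 ± 0.05 (adjusted p = 0.245). The light chain genes Slc7a7 and Slc7a8 averaged 0.725 and 0.0794 FPKM, and the cystine importer Slc7a11 averaged 0.00545 FPKM.

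Slc7a1 (CAT1), the arginine and lysine importer, had 6.30, 5.04 and 5.23 FPKM in IL-15C against 4.25, 4.66 and 4.36 FPKM in IL-2C. All IL-15C values were higher, but the log2 change of 0.26 ± 0.07 did not pass (limma adjusted p = 0.0664, 95% interval 0.09 to 0.43). Its separation, like that of some other carriers, depended on the scale. Its implied fragments relative to the library total (per 1000000 fragments), which do not use the transcript length, were 42.8, 37.4 and 38.5 in IL-15C against 37.8, 34.5 and 36.1 in IL-2C, so the groups overlapped and the ratio of means was 1.10 in place of 1.25. For Slc16a6 the same measure gave 66.2, 62.8 and 61.2 in IL-15C against 49.7, 51.5 and 52.6 in IL-2C, a ratio of 1.24, with no overlap, and for Slc43a3 a ratio of 1.39. Slc2a3 and Slc16a3, which overlap in FPKM, did not overlap on this measure: Slc2a3 had 269, 239 and 246 in IL-15C against 232, 231 and 223 in IL-2C, and Slc16a3 had 15.3, 12.5 and 13.5 in IL-15C against 12.2, 11.7 and 11.8 in IL-2C. Slc38a7 and Slc2a8, which do not overlap in FPKM, overlapped on it. Slc3a2 and Slc38a10 changed side, with ratios of 1.02 and 1.05 on this measure against 0.967 and 0.966 in FPKM. The other cationic carriers, Slc7a2, Slc7a3, Slc7a4 and Slc7a14, averaged at most 0.170 FPKM.

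**Figure D3:**
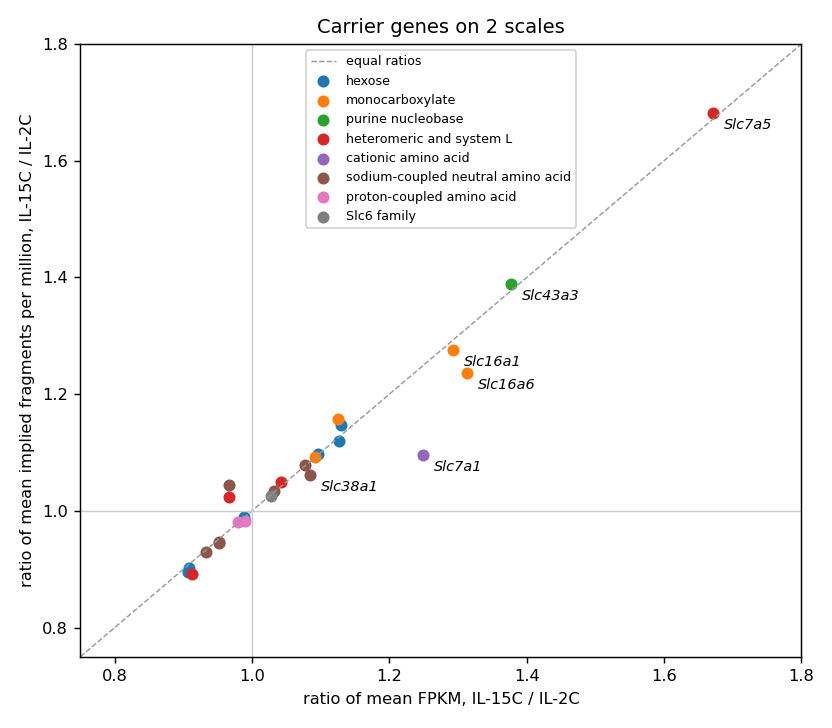
Ratio of group means, IL-15C over IL-2C, for the 26 tested carriers, from FPKM on the x axis and from implied fragments relative to the library total on the y axis, coloured by substrate class. Most points lie near the dashed line of equal ratios, and Slc7a1 lies farthest below it, at 1.25 on the x axis and 1.10 on the y axis.

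Of the 7 tested sodium-coupled neutral amino acid carriers 0 passed in limma and 1 had an unadjusted p under 0.05. Among all tested genes 6.44% passed, and 6.48% were higher and 20.4% lower at that unadjusted p. Counts this small do not set the class apart. Slc38a1 (SNAT1), a glutamine importer, had 29.4, 28.7 and 27.5 FPKM in IL-15C against 26.5, 25.3 and 27.1 FPKM in IL-2C. The groups did not overlap but nearly met, and the log2 change was 0.11 ± 0.04 (adjusted p = 0.147). Its neighbour Slc38a2, 44.5 kb away on chromosome 15, had 67.9, 62.1 and 63.4 FPKM in IL-15C against 56.5, 64.6 and 58.6 FPKM in IL-2C and overlapped, at 0.11 ± 0.06. Slc1a5, whose values are given above, had a log2 change of -0.07 ± 0.05 with a 95% interval of -0.19 to 0.05. The lysosomal members Slc38a7, which exports glutamine from lysosomes, and Slc38a9, which reports lysosomal arginine to mTORC1, had 5.62 to 5.86 and 3.79 to 3.98 FPKM in IL-15C against 5.43 to 5.599 and 3.84 to 4.54 FPKM in IL-2C. Slc38a10 and Slc38a6 had log2 changes of -0.05 each, neither past the test. Slc1a4, Slc38a5, Slc38a8 and Slc38a11 averaged at most 0.114 FPKM, and Slc38a3 and Slc38a4 were listed at 0.

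The hexose carriers held 6 tested genes, of which 0 passed in limma and 0 had an unadjusted p under 0.05. Among all tested genes 6.44% passed, and 6.48% were higher and 20.4% lower at that unadjusted p. With 6 genes, counts of 0 do not set the class apart. Slc2a3, the high-affinity glucose carrier, had 41.9, 35.7 and 36.8 FPKM in IL-15C against 36.4, 34.7 and 33.3 FPKM in IL-2C. The groups overlapped in FPKM, and the log2 change was 0.13 ± 0.06 (adjusted p = 0.234). Slc2a1 (GLUT1), the glucose carrier that activated lymphocytes raise, had 21.5, 20.2 and 20.7 FPKM in IL-15C against 21.7, 21.1 and 20.4 FPKM in IL-2C. Its values overlapped throughout, and the 95% interval of its log2 change of -0.02 ran from -0.11 to 0.08; the sign turned under common median scaling (0.0275) and quantile normalization (0.0205). The intracellular carriers Slc2a8 and Slc2a6 had log2 changes of -0.11 ± 0.06 and 0.12 ± 0.07, the urate carrier Slc2a9 had 0.12 ± 0.06 and Slc2a10 had -0.09 ± 0.06. The insulin-responsive Slc2a4 and the liver carrier Slc2a2 averaged 0.00148 and 0.00316 FPKM, and Slc2a7 and Slc2a13 were listed at 0.

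The proton-coupled carrier Slc36a1, which exports amino acids from lysosomes, had 21.3, 20.9 and 21.7 FPKM in IL-15C against 21.6, 22.4 and 21.3 FPKM in IL-2C, a log2 change of -0.03 with a 95% interval of -0.12 to 0.06, which turned sign under common median scaling (0.0150) and quantile normalization (0.0082). Slc36a4 had 1.58 to 1.89 FPKM in IL-15C, against 1.45 to 1.92 FPKM in IL-2C. On chromosome 11 Slc36a1 has Slc36a2 19.3 kb away and Slc36a3 next to that; Slc36a2 was listed at 0 in all libraries and Slc36a3 averaged 0.0199 FPKM. Of the Slc6 family the taurine importer Slc6a6 was the 1 tested gene, with 12.3, 11.2 and 11.7 FPKM in IL-15C against 11.5, 11.3 and 11.5 FPKM in IL-2C, and overlapped. The creatine importer Slc6a8 averaged 0.433 FPKM and the serotonin transporter Slc6a4 0.0923; 8 of the 19 Slc6 genes, among them the dopamine transporter Slc6a3, were listed at 0 in every library.

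**Figure D4:**
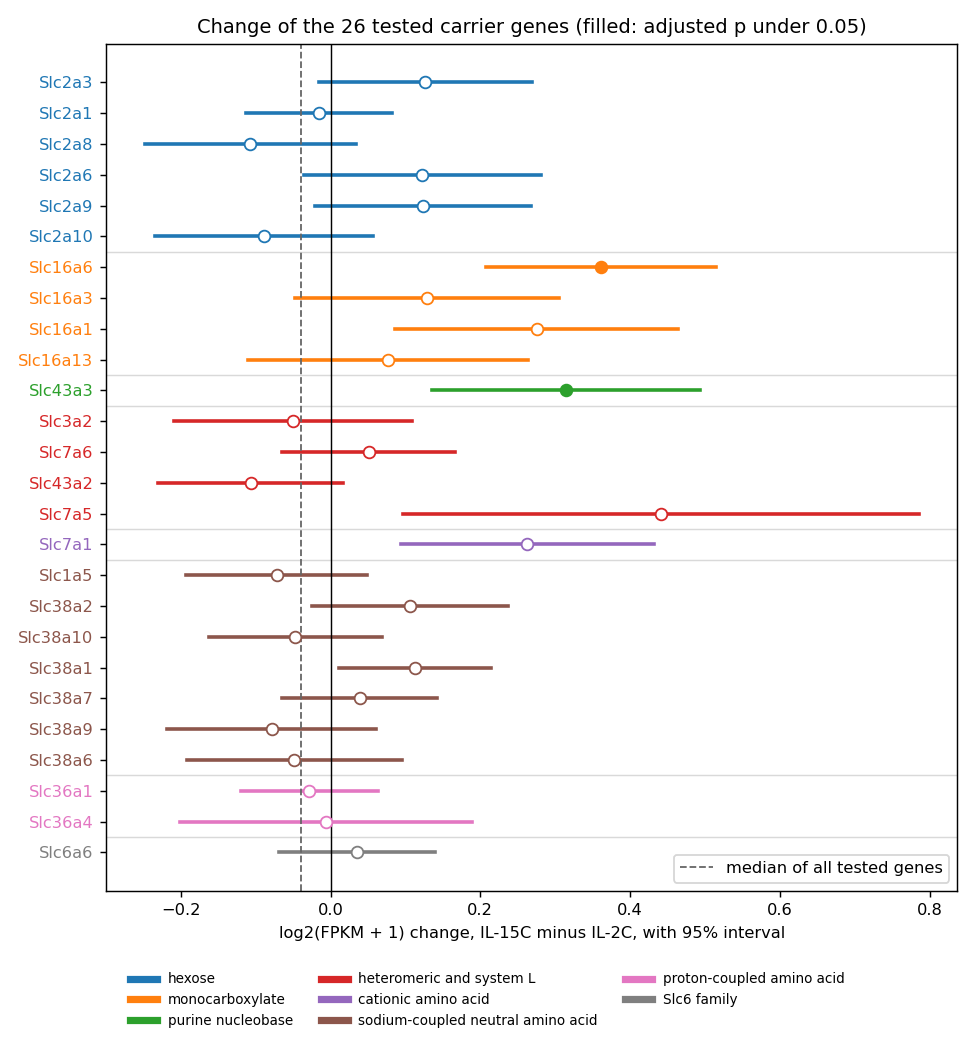
Log2(FPKM + 1) change, IL-15C minus IL-2C, of the 26 tested carriers with 95% intervals from limma, filled where the adjusted p was under 0.05, with the median of all tested genes as a dashed line at -0.04. Slc16a6 and Slc43a3 are filled; the interval of Slc7a5 is the widest, and Slc2a1, Slc1a5, Slc3a2 and Slc36a1 have intervals that include 0.

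The genes that work with the carriers gave few calls, and the shares to set beside them are those of all tested genes, 1.72% higher and 4.72% lower. Of 6 tested carrier partners 0 rose, 1 fell and 5 did not pass: Arrdc3, an arrestin-like adaptor that sends membrane proteins to degradation, averaged 12.9 ± 0.468 FPKM in IL-15C, against 16.2 ± 1.20 FPKM in IL-2C (log2 change -0.31 ± 0.06, limma adjusted p = 0.0200). Txnip, which drives GLUT1 from the surface, had 286 ± 17.5 FPKM in IL-15C, against 329.6 ± 31.0 FPKM in IL-2C, and did not pass (adjusted p = 0.128), and Bsg, the chaperone of Slc16a1 and Slc16a3, had 63.7 ± 5.05 FPKM in IL-15C, against 64.9 ± 2.59 FPKM in IL-2C. Of 13 tested regulators of carrier transcription 1 rose, 1 fell and 11 did not pass. Srebf2, the activator of sterol synthesis genes, averaged 16.5 ± 0.710 FPKM in IL-15C, against 13.1 ± 0.318 FPKM in IL-2C (0.31 ± 0.05, adjusted p = 0.0118). Nfe2l2 (NRF2), which drives antioxidant genes, averaged 21.4 ± 0.643 FPKM in IL-15C, against 25.5 ± 0.801 FPKM in IL-2C (-0.24 ± 0.04, adjusted p = 0.0200). Arrdc3, Srebf2 and Nfe2l2 all lost their call without a filter on low values and when replicate 1 or 2 of IL-2C was left out. Arrdc3 also lost it without IL-15C replicate 3 and Nfe2l2 without IL-15C replicate 2. The adjusted p of these lost calls was at most 0.0972.

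Downstream of the carriers, 1 of 17 tested glycolysis genes rose, 1 fell and 15 did not pass, where 6.44% of all tested genes were called in either direction. At an unadjusted p under 0.05 in limma, 4 glycolysis genes were higher and 2 lower, 3 amino acid metabolism genes were higher and 0 lower, 0 partners were higher and 2 lower, and 2 regulators were higher and 3 lower. The shares to set beside these counts, and beside that of the sensing genes below, are 6.48% higher and 20.4% lower of all tested genes. The hexokinase Hk3 averaged 2.46 ± 0.0474 FPKM in IL-15C, against 1.79 ± 0.0279 FPKM in IL-2C (0.31 ± 0.06, limma adjusted p = 0.0208). The phosphofructokinase Pfkm averaged 2.09 ± 0.0792 FPKM in IL-15C, against 2.69 ± 0.196 FPKM in IL-2C (-0.25 ± 0.06, adjusted p = 0.0495). Of 15 tested amino acid metabolism genes 1 rose, 0 fell and 14 did not pass; the serine synthesis enzyme Psat1 averaged 9.64 ± 1.44 FPKM in IL-15C, against 7.33 ± 0.382 FPKM in IL-2C (0.35 ± 0.09, adjusted p = 0.0483). Pfkm lost its call in all 6 omissions of a library and under each of the 3 other scalings. It also lost it with a pseudocount of 5, without a filter and with the replicate block, and kept it in 3 of 15 alternatives. Psat1 kept it in 7 of 16 alternatives. It lost it without IL-15C replicate 2, without any 1 IL-2C library, with a pseudocount of 5, without a filter, after TPM rescaling, without the trend and with the replicate block. Hk3 lost it without a filter, without IL-15C replicate 2 or 3 and without IL-2C replicate 1 or 2. The adjusted p of these lost calls was at most 0.156. Of 24 tested genes of mTORC1 amino acid sensing 0 passed in limma, and 1 was higher and 2 lower at an unadjusted p under 0.05; Fnip1 and Sesn1 had the smallest p, at -0.15 ± 0.05 and -0.14 ± 0.05. The median log2 changes of the lists were -0.05 for partners, -0.05 for regulators, 0.09 for glycolysis, 0.04 for amino acid metabolism and -0.06 for sensing, beside -0.04 for all tested genes.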

How the data were processed

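RNA of sorted spleen NK cells was sequenced in 6 libraries, 3 IL-15C and 3 IL-2C, grouped by the sample titles. The authors deposited FPKM values with interval bounds, 1 table per library, and a Cuffdiff table of group values, per the file headers; per the submitters' processing notes TopHat2 2.0.13, Cufflinks 2.2.1 and mm10 were used. No label names the annotation. FPKM values are not counts, and no count test was used. For 280 genes with several rows the rows were added up; 10 genes with a failed estimate, none a carrier, were dropped.

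limma 3.58.1 in R 4.3.3 was run two-sided with an intensity trend on log2(FPKM + 1). It covered 9831 genes with a mean of at least 1 FPKM, with Benjamini-Hochberg adjustment and a threshold of 0.05. On simulated data with normal noise of each gene's fitted spread, it recovered 59.8% of changes of 0.25 in log2. For changes of 0.5 and 1 it recovered 98.8% and 99.8%, so small changes can be missed. The pseudocount understates the change of low genes. Implied fragments were read from each interval as FPKM ± 2 SD of a Poisson count; they cover counting error only and are approximate for genes with several isoforms. Starts are written 1-based, after adding 1 to the files' values. The alternatives tried were a pseudocount of 0.1 or 5, no minimum or one of 5 FPKM, 3 scalings (common median, TPM, quantile), no trend, array weights, a replicate block and leaving out each library. Carriers of at least 1 FPKM are all named; of each pathway list the called genes, or the 2 with the smallest p, are named, with Txnip and Bsg added after their values were seen, as were the low carriers given. The carriers, lists and tests were chosen with earlier results of these data known. Tables and plots were made in Python 3.11.15 (matplotlib 3.10.9, scipy 1.17.1, numpy 2.4.6, pandas 2.3.3).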

Additional observations from a re-analysis of the deposited data

How the results depend on the processing

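The count of carriers called lower was 0 as reported and in all 16 alternatives. The count called higher, 2 as reported, was 1 with a pseudocount of 5, 1 with a minimum of 5 FPKM, 1 after TPM rescaling, 1 with the replicate block, 0 without a filter, 4 after quantile normalization and 4 with array weights; it ran from 0 to 2 with each library left out. Slc16a6 was called in 13 of its 16 alternatives (adjusted p 0.00433 to 0.0972) and Slc43a3 in 6 of 15 (0.0333 to 0.147); with the replicate block Slc43a3 had an adjusted p of 0.0673. Same-numbered libraries did not deviate together (r = -0.03, -0.16 and -0.02 over genes), and 0 of the 3 IL-15C libraries correlated best with its own number. The labels do not say whether same-numbered libraries were paired, and weak shared deviations cannot decide it. The replicate block gave 171 genes higher and 346 lower. Slc7a1 was also called after common median scaling and quantile normalization, Slc16a1 after quantile normalization and with array weights, and Slc38a1 with array weights. Over all tested genes, 169 higher and 464 lower became 6 and 9 without a filter, 325 and 207 after common median scaling, 307 and 269 after quantile normalization and 440 and 1667 with array weights, and ran from 14 to 176 higher and from 15 to 575 lower with each library left out. TPM rescaling gave 204 higher and 326 lower. Over all tested genes the median change, -0.04 in log2, moved to 0.0005 after common median scaling, -0.03 after TPM rescaling and -0.01 after quantile normalization. The log2 changes of 5 carriers turned sign in some alternatives. After common median scaling Slc2a1 was 0.0275, Slc36a1 0.0150 and Slc36a4 0.0228; after quantile normalization they were 0.0205, 0.0082 and 0.0332, and Slc36a4 was 0.0031 after TPM rescaling. With a library left out, Slc2a1 ran from -0.0391 to 0.0042, Slc36a4 from -0.0897 to 0.0370, Slc38a10 from -0.0835 to 0.0026 and Slc3a2 from -0.1282 to 0.0042. Of the low carriers, Slc43a3 rested on 182 to 300 implied fragments a library and Slc16a10 on 64 to 115. The effect of depth on their results was not tested. The cause of the lost calls was not tested; leaving out a library also leaves fewer libraries for the test.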
